A study of Mus musculus with 9 samples.

Results

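The library labelled CD11cCre, 1 of 5 made from Gr-1- monocytes, is described here against the 4 other Gr-1- libraries among the 9 libraries of a blood monocyte series. The mice were C57BL/6 animals at 8 months of age, and each library was made from about 100000 Gr-1-CD11b+ cells sorted out of blood. All 5 genotypes carried Yaa, a Y chromosome with a translocated X segment that holds Tlr7. The CD11cCre library came from CD11cCre;Fcgr2 fl/fl.Yaa mice, in which the labels place the loss of Fcgr2 in cells where the CD11c driver is active. The other Gr-1- libraries were labelled Fcgr2-/-.Yaa (null), CD19Cre;Fcgr2 fl/fl.Yaa, CEBPaCre;Fcgr2 fl/fl.Yaa and Fcgr2 fl/fl.Yaa (floxed, with no Cre), with 1 library each. The labels do not say whether animals were pooled or how the Cre was introduced. No Gr-1+ library labelled CD11cCre was analysed here, and the 4 Gr-1+ libraries (null, 2; CEBPaCre, 1; CD19Cre, 1) are used here only as values set beside the Gr-1- ones.

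Gr-1- monocytes of mouse blood, also called nonclassical or patrolling monocytes, depend on the nuclear receptor Nr4a1 and crawl along the vessel wall. They carry CD11c, the integrin alpha chain encoded by Itgax, which is also the common marker of dendritic cells and is found on NK cells. Immediate early genes, such as Fos and Egr1, encode unstable transcription factors made within minutes of a stimulus, and MAP kinase and NF-kB signalling drive many of them together with chemokines. Fcgr2, listed as Fcgr2b, encodes CD32, the inhibitory receptor for IgG.

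The values were FPKM, which scale fragment numbers by transcript length and by the mapped total, so levels of different genes can be compared per length. With 1 library per genotype, genotypes were not compared by a test and no p-value is given: each gene is described by its 5 values and by whether the CD11cCre library lay outside the range of the other 4. Folds are ratios of FPKM + 1 between the CD11cCre library and the nearest of the other 4, unless another library is named. The 4 others differ in genotype, so their range holds genotype as well as library variation, and differences by genotype cannot be told apart from differences between single libraries.

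Of 23234 symbols, 10373 averaged 1 FPKM or more across the 5 Gr-1- libraries, and 3336 of these (32.2%) lay outside the range of the other 4. With 5 alike libraries, each would also be the highest or the lowest for many symbols. This share by itself does not set the CD11cCre library apart. The CD11cCre library was above the range for 2169 symbols (20.9%) and below it for 1167 (11.3%). It was at least 2-fold above the highest other library for 73 symbols (0.704%; 49 among symbols with a mean of 1 FPKM or more in the other 4) and at least 2-fold below the lowest for 20 (0.193%). Of these, 20 and 7 were small RNA symbols, whose FPKM are unstable because the transcripts are so short. The median log2 difference to the mean of the others was 0.12 over all tested symbols. After scaling by median ratios, it was -0.01, and the share of symbols above among those outside the range went from 65.0% to 51.7%. The CD19Cre Gr-1- library set much of the range: without it, 4211 symbols (40.6%) were above and 2018 (19.5%) below. Without the CEBPaCre library, 112 symbols were at least 2-fold above. The 2-fold lower count was 31 without the CD19Cre and 38 without the floxed library.

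Markers of the sorted subset were present. Of 24 genes of nonclassical monocytes, all tested, 7 were above the range, 2 were below it and 15 were inside it. Over all tested symbols, 20.9% were above and 11.3% below. Itgal, an integrin chain, was at 398 FPKM against 200.1 to 371, and Csf1r, the receptor for the growth factor CSF1, at 1191 against 468 to 1141. Cd9, a tetraspanin, was below the range, at 375 against 430 to 615 FPKM. Nr4a1 stood at 971 FPKM, inside the 560.5 to 1005 FPKM of the others. The summed level of the 24 genes was 10595 FPKM, against 8260 to 11870 in the other Gr-1- and 2607 to 4059 in the Gr-1+ libraries. Of 16 tested classical monocyte genes, 1 was above and 3 were below. Symbols at 0 numbered 8401, against 5123 to 8827 in the 4 others, and 80 ribosomal protein symbols held 3.44% of summed FPKM, against 2.12% to 5.49%. The depth in reads is unknown. Relative depths were taken from the commonest ratio of the lowest values, where a gene is assumed to have 1 fragment in each of 2 libraries. They were 1.23 for CD11cCre, 1.30 for null, 2.66 for CD19Cre and 2.28 for CEBPaCre, with floxed at 1. Only 12.2% (CD19Cre) to 21.2% (null) of low genes lay at that ratio. The CD19Cre library, deepest by this measure, also had the most symbols at 0 of the Gr-1- libraries (8827), so these depths are uncertain.

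Fcgr2b did not set the library apart. It was at 92.9 FPKM in the CD11cCre library, 145 in null, 105.4 in CD19Cre, 83.0 in CEBPaCre and 74.9 in floxed. The CD11cCre value lay in the middle of the others, and the library labelled null held the most. Gene-level values do not show if the floxed part is absent from the transcript, and Fcgr2b shares sequence with Fcgr3. Of 7 tested Fc receptor genes, 1 was above the range and 1 below, against 20.9% and 11.3% of all tested symbols. Fcgr1, which binds monomeric IgG with high affinity, was 1.32-fold above, at 11.1 FPKM against 3.33 to 8.21. Fcer1g, the signalling chain shared by activating Fc receptors, was 1.20-fold below, at 3427 FPKM against 4113 to 4764. Fcgr3 (124 FPKM) and Fcgr4 (512 FPKM), both activating receptors, were inside the range of the others.

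Itgax and the genes that follow it on chromosome 7 were far above the other libraries. Itgax was at 301 FPKM in the CD11cCre library, 36.2 in null, 37.9 in CD19Cre, 66.0 in CEBPaCre and 33.8 in floxed. It was 4.51-fold above the CEBPaCre library and, with that library left out, 7.76-fold above the next. Itgad, the next gene in order and the alpha chain of the integrin CD11d, was at 35.4 FPKM against 4.02, 2.77, 6.60 and 1.79 in the same order. The uncharacterised 4931431B13Rik was at 20.8 FPKM against 0 to 2.81. Cox6a2, a muscle form of a cytochrome c oxidase subunit, was at 26.4 FPKM against 0 to 1.28, which made it 12.04-fold above CEBPaCre and 19.0-fold above the next library. In all 3 the CEBPaCre library was the highest of the others, as for Itgax.

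The block of high genes had edges. Of the 20 nearest neighbours listed in the files, 10 on each side in GRCm38 gene order, 13 were tested, 6 were above the range and 2 below, against 20.9% and 11.3% of all tested symbols. Cox6a2 passed the mean of 1 FPKM through the CD11cCre library. Beyond Itgad, 4931431B13Rik and Cox6a2, Armc5 was 1.56-fold above, at 13.2 FPKM against 6.20 to 8.12. On the other side, Itgam, the immediate neighbour that encodes the CD11b of the sort, was inside the range at 157 FPKM against 66.1 to 179.5. Pycard, further along that side, was above by 1.02-fold, which other scalings did not keep. Tested genes past Armc5 were Rgs10, at 15.4 FPKM against 16.2 to 18.2, and Tial1, inside the range. In the Gr-1+ libraries Itgax was at 1.03 to 4.10 FPKM and Cox6a2 at 0 to 0.295 FPKM.

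**Figure D1:**
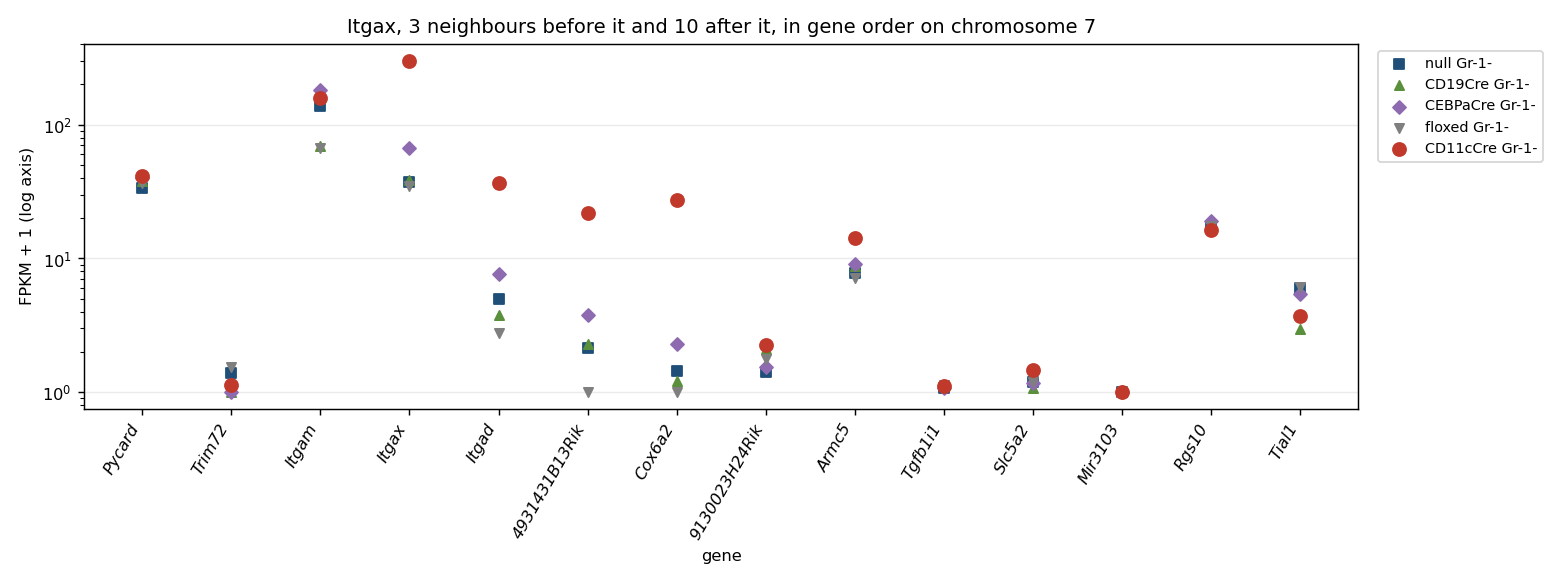
FPKM + 1 (log axis) of Itgax, the 3 listed neighbours before it and the 10 after it, in gene order on chromosome 7, in the CD11cCre library (red) and the 4 other Gr-1- libraries. The red points leave the others at Itgax (301 against at most 66.0 FPKM), Itgad, 4931431B13Rik and Cox6a2, and lie inside the range at Itgam.

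Immediate early genes had the highest share of members above the range among the 27 lists apart from NK cell genes. Of 27 listed, 21 were tested, 16 (76.2%) were above the range of the other 4 and 0 were below, against 20.9% and 11.3% of all tested symbols. The median log2 difference to the mean of the others was 0.85, against 0.12 over all. Myc passed the mean of 1 FPKM only through the CD11cCre library, and 15 of the 20 other tested genes were above. Of the 21, 7 were at least 2-fold above the nearest library: Atf3, Fosb, Fos, Egr1, Jun, Zfp36 and Klf6. Without the CD19Cre library, 17 were above and 1 was below, where 40.6% of all symbols were above.

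AP-1 subunits pair as Fos and Jun proteins on DNA, and 5 of the 6 tested were above the range. Fos was at 902 FPKM in the CD11cCre library, 227 in null, 110.0 in CD19Cre, 196 in CEBPaCre and 146 in floxed. Fosb was at 28.3 FPKM against 5.30, 2.28, 1.84 and 2.33, 4.65-fold above null and 8.80-fold above the next. Both were highest in the null library among the others. Jun was at 516 FPKM against 90.6, 160, 128 and 86.6, so no other library came within 3-fold. Junb, at 986 FPKM against 397 to 634.5, and Jund, at 222 against 91.1 to 166, were above by 1.55-fold and 1.33-fold. Fosl2 was inside the range.

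Atf3, a stress-induced repressor of the ATF family, had the widest gap of the list. It was at 116 FPKM against 11.8 in null, 7.51 in CD19Cre, 23.4 in CEBPaCre and 13.3 in floxed, 4.82-fold above CEBPaCre and 8.22-fold above the next. Egr1, a zinc finger factor induced through serum response factor, was at 27.2 FPKM against 7.21, 6.55, 3.39 and 1.11, and 3.43-fold above null. Both genes were thus above the range in this 1 library, as were 20.9% of all tested symbols. Smaller gaps were seen for Btg2, an antiproliferative gene (1.69-fold), Csrnp1 (1.51-fold), Ier5 (1.39-fold) and Ier2 (1.28-fold). Klf6, a Kruppel-like factor, was at 231 FPKM against 76.1 to 112, while Klf2 was 1.18-fold above, a gap not kept under other scalings. Nr4a1, Klf4, Klf10 and Ier3 were inside the range.

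Some genes that shut these signals off were high as well. Dusp1, a phosphatase of p38 and JNK kinases, was at 2076 FPKM in the CD11cCre library, 451 in null, 618 in CD19Cre, 473 in CEBPaCre and 309 in floxed. It was 3.35-fold above the CD19Cre library. Dusp2, Dusp6 and Dusp5, other phosphatases of MAP kinases, were above by 1.73-fold, 1.49-fold and 1.09-fold, while Dusp10 and Dusp16 were inside the range. Of 9 tested MAP kinase feedback genes, 5 were above and 0 below, against 20.9% and 11.3% of all tested symbols (median log2 difference 0.40), and the Ras inhibitors Spred1 and Spred2 were among the 4 inside. Zfp36, a protein that speeds the decay of AU-rich mRNA such as that of Tnf, was at 1124 FPKM against 539, 329, 480 and 430.

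Promoter sequence is shown for 3 of the genes at least 2-fold above the others, Zfp36, Dusp1 and Cxcl2, because each holds a motif of a different signalling route. The lines give the 250 bases before the gene start from RefSeq (GRCm38.p6), with the motif in capitals. They lie at chr7:28379229-28379478 (minus strand), chr17:26508473-26508722 (minus strand) and chr5:90903649-90903898 (plus strand). The capitals mark a CArG box, bound by serum response factor, in Zfp36, a cyclic AMP response element (TGACGTCA) in Dusp1, and an NF-kB site in Cxcl2.
Zfp36: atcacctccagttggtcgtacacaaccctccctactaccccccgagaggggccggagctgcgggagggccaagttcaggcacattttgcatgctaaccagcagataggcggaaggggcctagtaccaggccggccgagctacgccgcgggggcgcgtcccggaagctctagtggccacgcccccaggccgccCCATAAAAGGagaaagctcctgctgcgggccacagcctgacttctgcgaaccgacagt
Dusp1: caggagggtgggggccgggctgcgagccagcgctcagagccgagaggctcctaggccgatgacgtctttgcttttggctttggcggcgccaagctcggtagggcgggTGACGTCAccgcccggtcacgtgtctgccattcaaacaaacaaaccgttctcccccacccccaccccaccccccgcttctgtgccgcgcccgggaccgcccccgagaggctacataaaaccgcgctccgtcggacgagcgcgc
Cxcl2: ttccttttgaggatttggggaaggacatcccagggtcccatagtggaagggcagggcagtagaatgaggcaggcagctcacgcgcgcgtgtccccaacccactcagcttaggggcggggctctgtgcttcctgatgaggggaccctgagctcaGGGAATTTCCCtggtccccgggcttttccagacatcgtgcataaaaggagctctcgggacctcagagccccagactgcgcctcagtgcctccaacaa
The motifs begin 58, 143 and 97 bases before the gene start, and the Cxcl2 run holds 2 overlapping matches to the NF-kB pattern.

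Such motifs were searched on both strands in windows of 300 bases, from 250 before to 50 after the start, for every gene with a window in the table. A CArG box was in the windows of 3 of 21 immediate early genes (14.3%), against 1.81% of 27025 genes. Of the 13 immediate early genes above the range with a window, 2 held it, Zfp36 and Srf, which encodes serum response factor itself. Dusp5 held it too. The cyclic AMP response element was in 2 of the 21 (9.52%), against 2.03% of all and 3.74% of tested genes, and 1 of them, Btg2, was above the range. An NF-kB pattern was in 7 of the 21 (33.3%), against 9.55% of all and 12.05% of tested genes, and 2 of these, Fos and Fosb, were above the range. NF-kB patterns were in 10 of 16 NF-kB feedback genes (62.5%). Among all 1540 genes above the range with a window, 1.36% held a CArG box and 14.0% an NF-kB pattern, against 1.60% and 12.05% of 7297 tested genes. Of 38 genes at least 2-fold above with a window, 1 (2.63%) held a CArG box, against 1.60% of tested genes. The cyclic AMP response element was in 2 of the 38 (5.26%), against 3.74%, and an NF-kB pattern in 3 (7.89%), against 12.05%. These are matches of letters in a short window, and no match says nothing about a factor.

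**Figure D2:**
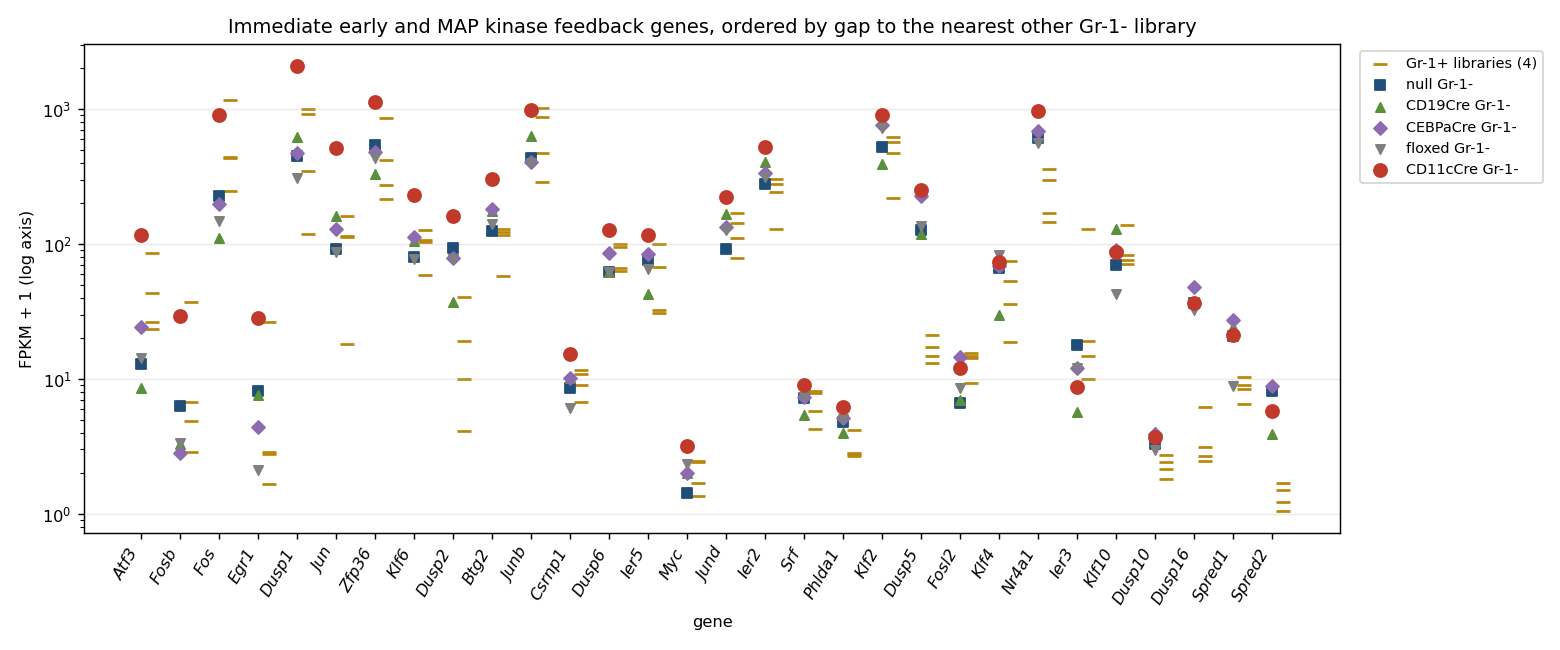
FPKM + 1 (log axis) of the tested immediate early and MAP kinase feedback genes in the 5 Gr-1- libraries, with the 4 Gr-1+ libraries as dashes, ordered from the widest gap above (left). The CD11cCre library (red) is above all other Gr-1- libraries for 16 of 21 immediate early genes. Among these 16, a Gr-1+ library exceeds it for Fos, Fosb and Junb.

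Some of these genes were also high in 1 Gr-1+ library, replicate 1 of the null genotype. There, Fos was at 1175 FPKM, Fosb at 36.3, Egr1 at 25.2 and Atf3 at 84.4, against 245 to 441, 1.88 to 5.76, 0.654 to 1.88 and 22.4 to 42.4 FPKM in the other Gr-1+ libraries. For Jun it held 159 FPKM, within reach of the other Gr-1- libraries. Of the 16 genes, 13 were also above all 8 other libraries, as were 11.5% of all tested symbols.

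Among chemokine ligands, the neutrophil attractant Cxcl2 and the inflammatory chemokines Ccl3 and Ccl4 were high. Cxcl2 was at 62.2 FPKM in the CD11cCre library, 21.1 in null, 2.83 in CD19Cre, 3.44 in CEBPaCre and 2.41 in floxed. The null library was the only other Gr-1- library above 4 FPKM, so Cxcl2 was 2.85-fold above it and 14.2-fold above the next. In the Gr-1+ libraries Cxcl2 ran from 0.457 to 225 FPKM, the highest again in null replicate 1. Ccl4 was at 39.8 FPKM against 17.2, 12.2, 7.78 and 12.8, and Ccl3 at 49.7 FPKM against 35.3, 20.5, 16.6 and 16.9. Ccl5 was at 374 FPKM against 18.4, 39.2, 90.3 and 209, the floxed library coming nearest at 1.78-fold.

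The whole list gave 5 of 9 tested ligands above the range (55.6%) and 1 below, against 20.9% and 11.3% of all tested symbols, with a median log2 difference of 1.14. Of 18 listed ligands, 9 were under the mean of 1 FPKM, and 7 of the 18 were at 0 in the CD11cCre library. Ccl2, a monocyte attractant, was above the range at a low level, at 2.85 FPKM against 0 to 2.03. Its log2 difference of 1.14 is the list median. Ccl2 passed the mean of 1 FPKM only through the CD11cCre library, and 4 of the 8 other tested ligands were above. Ccl6 was at 451 FPKM against 453 to 468, and Ccl9, Cxcl10 and Cxcl16 were inside the range. NK cells also make Ccl3, Ccl4 and Ccl5, of which Ccl5 is in the NK cell list too, and NK cell genes were highest in this same library, as described below. Their part in the chemokine values was not tested. Of 12 tested chemokine and homing receptors, 5 were above (41.7%) and 0 below, against 20.9% and 11.3% of all tested symbols. Among the 5, S1pr1, the receptor through which lymphocytes leave tissue, was at 2.66 FPKM against 0.432 to 1.44, and Ccr7 at 3.09 against 0.374 to 1.97. S1pr1 passed the mean of 1 FPKM only through the CD11cCre library, and 4 of the 11 other tested receptors were above.

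NF-kB feedback genes lay on both sides of the range. Of 19 tested, 6 (31.6%) were above the range and 3 (15.8%) below, against 20.9% and 11.3% of all tested symbols, with a median log2 difference of 0.11, near the 0.12 of all symbols. Tnfaip3, a deubiquitinase that ends NF-kB signals, was 1.23-fold above, at 36.5 FPKM against 14.7 to 29.6. Nfkb1 was 1.16-fold above, and Nfkbia, the inhibitor first made after NF-kB activation, was inside the range at 314 FPKM. Sod2, the mitochondrial superoxide dismutase, was 1.46-fold below, at 24.6 FPKM against 45.6, 46.5, 39.2 and 36.3. Tnip3, a partner of Tnfaip3, was 1.35-fold below.

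Cytokine genes went both ways, with 3 of 15 tested (20%) above and 3 below, against 20.9% and 11.3% of all tested symbols. Il10, the main anti-inflammatory cytokine, was low: 1.85 FPKM in the CD11cCre library against 13.03 in null, 11.6 in CD19Cre, 7.23 in CEBPaCre and 11.53 in floxed. It was 2.89-fold below the CEBPaCre library, and the 4 Gr-1+ libraries held 0 to 1.70 FPKM. Il1rn, the antagonist of the IL-1 receptor, was 1.24-fold below, at 4.09 FPKM against 5.33 to 13.7. Tnf at 21.7 FPKM and Il1b at 519 FPKM were inside the range. Tgfb1 was 1.15-fold above, a gap not kept under other scalings.

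Surface genes of activation were likewise split, with 4 of 19 tested (21.1%) above and 4 below, against 20.9% and 11.3% of all tested symbols. Cd83, a maturation marker, was at 50.4 FPKM against 14.0, 2.71, 38.3 and 29.3, and Cd69, an early activation marker, at 7.36 FPKM against 2.23, 3.02, 4.68 and 1.87. Tnfrsf1b, a TNF receptor, was at 574 FPKM against 201.4 to 491. The 4 below included 3 neighbouring C-type lectin receptors for fungal and bacterial ligands. Clec4d was at 2.09 FPKM against 9.98, 9.88, 7.40 and 6.32, 2.37-fold below floxed. Clec4n (Dectin-2) was at 19.0 FPKM against 57.3, 112, 30.6 and 30.0, and Clec4e (Mincle) at 77.0 FPKM against 137.5, 197, 127 and 89.9. Cd40, Cd80, Cd86 and Icam1 were inside the range.

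**Figure D3:**
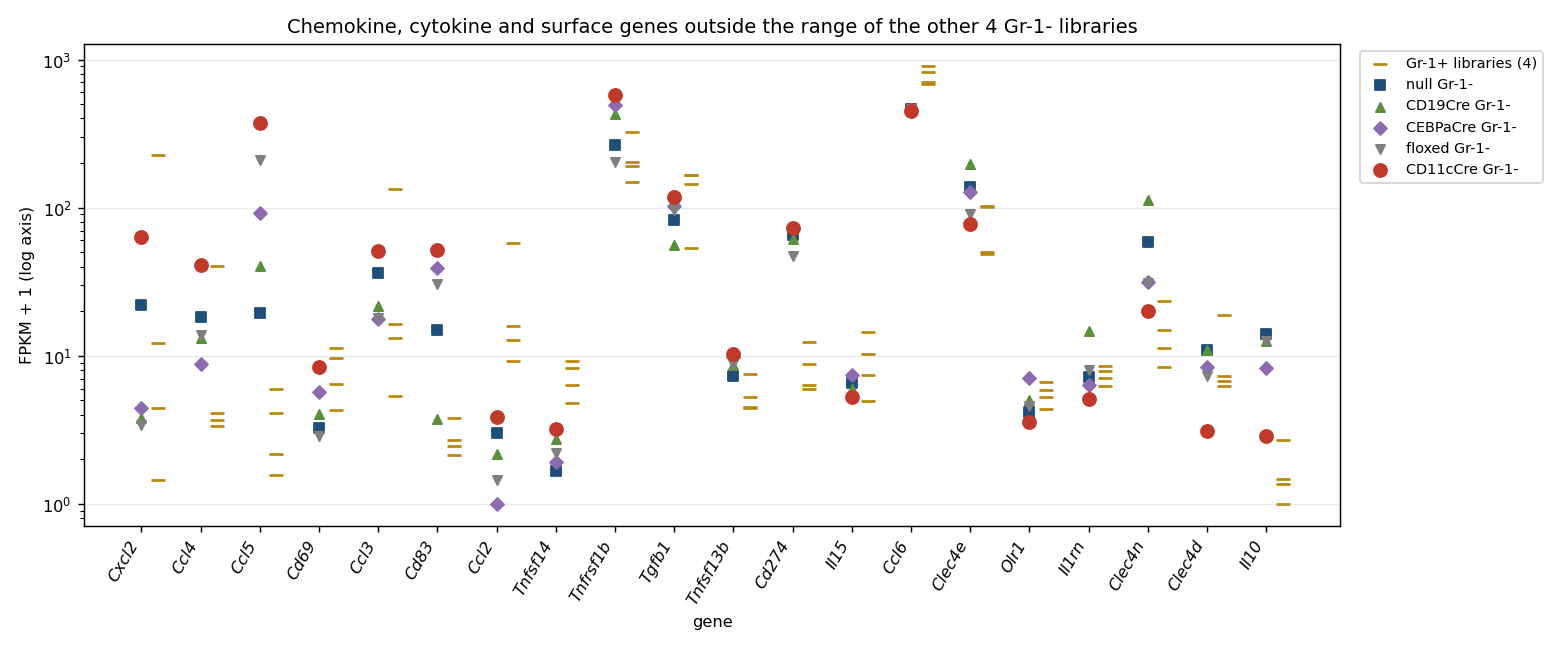
FPKM + 1 (log axis) of the chemokine, cytokine and activation surface genes outside the range of the other 4 Gr-1- libraries, with Gr-1+ libraries as dashes, ordered from the widest gap above (left) to the widest below (right). Cxcl2 at 62.2 FPKM opens the order and Il10 at 1.85 FPKM closes it.

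Stress genes apart from the immediate early ones were mostly inside the range, as were 7037 of all 10373 tested symbols. Of 18 tested heat shock chaperones, 2 were above, 3 below and 13 inside, against 20.9% above and 11.3% below over all. Their median log2 difference was -0.09. Hspa1a and Hspa1b, the inducible Hsp70 genes that cannot be assigned with certainty because they are nearly identical, were at 232 and 208 FPKM. They were just under the CEBPaCre library (237 and 247 FPKM) and above the 3 others, which ran from 21.0 to 67.8 FPKM. Bag3, an Hsp70 cochaperone, was 1.36-fold above and Hspe1, a mitochondrial chaperonin, 1.28-fold below. Without the CEBPaCre library, 7 of the 18 were above, where 29.1% of all symbols were.

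Of 19 tested genes of the unfolded protein and integrated stress responses, 5 were above and 3 below. Beside these and the lists that follow, 20.9% of all tested symbols were above and 11.3% below. Ppp1r15a (GADD34), which ends the translation block of the integrated stress response, was at 138 FPKM against 67.7, 62.9, 42.5 and 34.6, 2.02-fold above null. Ddit3 (CHOP) was at 11.9 FPKM against 12.2 to 15.8, just below the range, and Hspa5 was inside it. Without the CD19Cre library, 13 of the 19 were above, where 40.6% of all symbols were. Of 15 oxidative stress and metal response genes, 2 were above, among them Sqstm1, an autophagy receptor (1.24-fold), and 2 below, Prdx1 and Fth1 (1.24-fold and 1.13-fold). Without the floxed library, 8 of these 15 were below, where 16.8% of all symbols were. Of 12 p53 genes, 2 were above and 1 below. Plk2, a kinase induced by stress, was at 35.4 FPKM against 7.49 to 20.9, and Cdkn1a, the cell cycle inhibitor p21, at 48.2 against 23.6 to 39.9. Of 12 hypoxia and glycolysis genes, 3 were above and 1 below, and of 9 glucocorticoid targets, 3 were above and 0 below, Sgk1 leading at 1.35-fold.

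Some genes of antigen presentation and interferon response lay slightly above the range, and the others were inside it. Of 10 MHC class II genes, 6 were above and 0 below, against 20.9% and 11.3% of all tested symbols, with folds from 1.04 to 1.41. Ciita, the master activator of the class II genes, was at 8.84 FPKM against 2.83, 5.96, 5.38 and 3.54. Cd74, the invariant chain, was at 3461 FPKM against 655, 3320, 1962 and 2425. The null library was lowest for both. After scaling by median ratios 4 were above, and without the CD19Cre library 9 were, where 40.6% of all symbols were. Of 23 tested type I interferon response genes, 9 were above and 0 below, with folds up to 1.41 for Ifit2, and 0 were above all 8 other libraries. The list's mean log2(FPKM + 1) was 3.67 in the CD11cCre and 3.71 in the CEBPaCre library, which was the highest of the 4 others for 17 of the 23. Irf7, a factor that amplifies interferon, was at 98.3 FPKM against 33.2 in null, 76.6 in CD19Cre, 89.8 in CEBPaCre and 65.4 in floxed. Without the CEBPaCre library, 15 were above, where 29.1% of all symbols were.

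NK cell genes were high in the CD11cCre library. Of 23 listed, 20 were tested and 20 were above the other 4 Gr-1- libraries and the 4 Gr-1+ libraries, as were 11.5% of all tested symbols. Klrc2, Fasl and Klra4 reached the mean of 1 FPKM only with the CD11cCre library included, and the 17 others were above too. With no minimum mean, 22 of the 23 were above the other Gr-1- libraries, and Gzmm was not. Their folds to the nearest library ran from 1.42 (Klrd1) to 4.76 (Il2rb), with a median of 2.30. Gzma, a serine protease of cytotoxic granules, was at 184 FPKM in the CD11cCre library, 9.67 in null, 59.3 in CD19Cre, 68.6 in CEBPaCre and 88.5 in floxed. Prf1 (perforin) was at 41.2 FPKM against 1.77, 9.91, 8.52 and 7.37. Il2rb, the receptor chain for IL-2 and IL-15, was at 27.5 FPKM against 0.735, 4.39, 4.99 and 3.35, and Ncr1, the NK receptor NKp46, at 22.8 FPKM against 0.809, 4.62, 6.74 and 5.15.

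The order of the other libraries was also uneven. The null library was lowest of the 4 for 18 of the 20 genes, and the floxed library was highest for 11. Summed over the 23 genes, FPKM were 942 in CD11cCre, 47.0 in null, 187 in CD19Cre, 272 in CEBPaCre, 426 in floxed and 2.81 to 9.68 in Gr-1+. Of 12 T cell genes, 2 were tested and both were inside the range. Cd3e, Cd4 and Cd5 were at 0 in the CD11cCre library, Cd3d was at 0.620 FPKM against 0.0970 to 1.96, and Cd28 was the highest of the 5, at 0.940 FPKM against 0.0362 to 0.354. The sum over the 12 was 5.17 FPKM against 2.36 to 18.7. The part of T cell RNA in other results was not tested. In bulk RNA, more cells of a type and more RNA per cell cannot be told apart. Of 6 tested B cell genes 2 were above, where 20.9% of all tested symbols were. The sum over 12 listed B cell genes was 155 FPKM against 73.5 to 197. Of 10 tested dendritic cell genes, 3 were above and 0 below, against 20.9% and 11.3% of all tested symbols. Cd209a (DC-SIGN) was at 58.3 FPKM against 3.98, 20.3, 31.8 and 21.5, while Zbtb46, a factor of conventional dendritic cells, was inside the range at 2.22 FPKM.

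**Figure D4:**
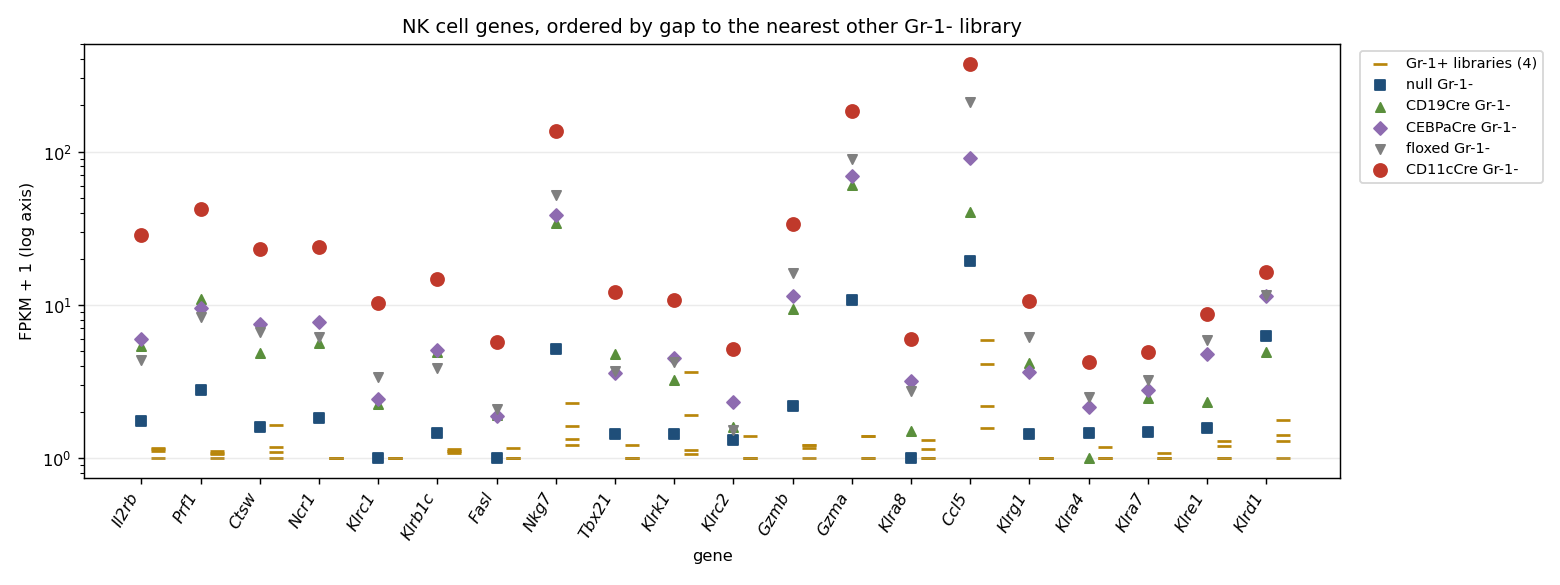
FPKM + 1 (log axis) of the 20 tested NK cell genes in the 5 Gr-1- libraries, with the 4 Gr-1+ libraries as dashes, ordered from the widest gap (left). The CD11cCre points (red) are highest throughout, from 3.26 FPKM for Klra4 to 374 FPKM for Ccl5, and null is lowest for 18 genes.

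Lists of other blood cells were looked at in the same way, beside 20.9% of all tested symbols above the range and 11.3% below it. Of 6 tested neutrophil genes, 0 were above and 2 below, S100a8 at 5.71 FPKM against 7.73 to 12.4 and Mmp8 at 0.0955 against 0.465 to 9.85. Retnlg, at 54.5 FPKM against 8.73 to 74.98, and Csf3r, the receptor for G-CSF, at 85.3 against 32.1 to 87.1, were near the top of the range. The median log2 difference of the 6 was 0.50, and the sum over the list was 160 FPKM against 66.2 to 145 in the other Gr-1- and 943 to 2782 in the Gr-1+ libraries. Prtn3, Elane and Ctsg, made in early neutrophil granules, were at 0. The part of neutrophil RNA in other results was not tested. Of 7 platelet genes, 1 was above and 1 below, and the 1 above, Gp1bb, passed the mean of 1 FPKM only through the CD11cCre library. Of 5 tested erythroid genes, 1 was below, Hbb-b1 at 21.0 FPKM against 21.3 to 118, and 0 of 4 eosinophil and basophil genes lay outside. Of 9 tested cell cycle genes, 2 were above and 1 below. Mcm3 and Mcm5, subunits of the replicative helicase, were above by 1.14-fold and 1.10-fold.

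**Figure D5:**
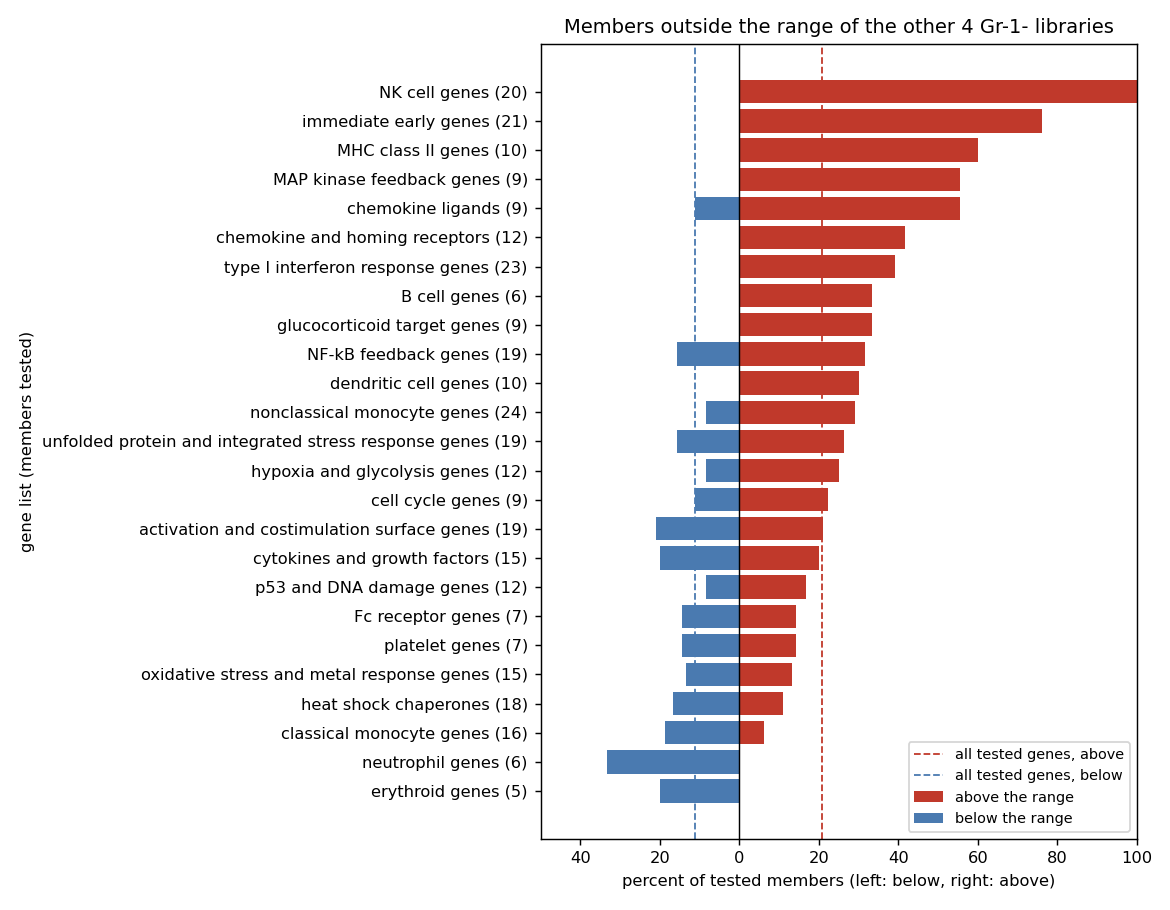
Percent of tested members of each list above (red, right) and below (blue, left) the range of the other 4 Gr-1- libraries, for lists with at least 5 tested members. Dashed lines give the same for all tested symbols, 20.9% above and 11.3% below, and NK cell (100%) and immediate early genes (76.2%) stand farthest right.

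Of the 53 symbols at least 2-fold above the others that were not small RNAs, 13 were NK cell genes, 8 were immediate early or MAP kinase feedback genes, 4 were Itgax and its neighbours and 2 were the chemokines Cxcl2 and Ccl4. A further 25 were in no list and no neighbour of Itgax. Some of the 53, among them Klrc2, Fasl, Cox6a2, Amd2, Plcb4 and Prkcq, passed the mean of 1 FPKM only through the CD11cCre library. Of all 73 symbols, small RNAs included, 49 averaged 1 FPKM or more in the other 4. Ppp1r15a and Klf6 were just past 2-fold, at 2.02 and 2.06, and Irs2 and Cd209a fell just short, at 1.95 and 1.81. Amd2 (17.2 FPKM against 0.00618 to 2.93) and Amd1 (0.162 FPKM against 14.4 to 21.0) mirrored each other. Their transcripts are nearly identical, so reads could be split between the pair and neither value is certain. The same pattern was seen in null Gr-1+ replicate 2, with Amd2 at 17.6 and Amd1 at 0.108 FPKM. The other Gr-1+ libraries held Amd1 at 14.1 to 21.8 FPKM.

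Among symbols below, 13 that were not small RNAs were at least 2-fold below the lowest library. The largest of these gaps was that of Amd1 (13.29-fold), whose value is uncertain as described above. Hist1h4n (4.29-fold) was at 0.000544 FPKM against 3.29 to 7.67. Eif3j (2.66-fold), a translation factor subunit, was at 2.42 FPKM against 8.10 to 21.6. Cfb, complement factor B, was at 4.73 FPKM in the CD11cCre library, 34.3 in null, 88.9 in CD19Cre, 30.0 in CEBPaCre and 18.4 in floxed. It was 3.38-fold below floxed and 5.40-fold below the next. Mmp14, a membrane-bound matrix protease, was at 10.5 FPKM against 60.8, 60.2, 25.4 and 18.5, 1.70-fold below. Ikbke, a kinase upstream of interferon regulatory factors, was at 17.1 FPKM against 57.5, 67.6, 30.1 and 28.7 (1.64-fold), and Fas, the death receptor, at 15.2 FPKM against 32.2, 32.7, 34.1 and 25.7 (1.65-fold). Vamp5, a vesicle protein, was at 10.8 FPKM against 19.2 to 43.2 (1.71-fold). Among genes at 10 FPKM or more in the nearest library, the others with the largest gaps below were Fam36a, Apool, Pin4, Cstf3 and Utp11l, by 1.54-fold to 1.67-fold.

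Transcript length went along with direction. The longest annotated transcript had a median of 3538 bases for genes above the range, 2312 for genes below it and 3196 for all tested genes. With genes split by length into 4 groups of near-equal size, 14.8% of the shortest group were above and 19.3% below, while in the longest group 24.7% were above and 5.67% below. Median GC content was 51.7% above, 47.2% below and 49.4% over all. With genes over 2000 bases only, 11 immediate early genes, 7 NK cell genes and 3 MAP kinase feedback genes were above, with 0 below in each of the 3 lists. At that setting 1635 of all 7039 symbols were above and 592 below, and shorter list members were not counted. The setting leaves genes out and changes no call, so the lower list counts come from members left out. The part of length in the gene values was not tested.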

How the data were processed

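RNA sequencing values of 9 libraries of sorted blood monocytes were read from the deposited files, 1 library per file. The values are FPKM made by the authors, and TopHat2 2.0.8, Cufflinks 2.1.1 and mm9 are named in the submitters' processing notes. The annotation and settings are not given in the sources used here. Trizol extraction and SMART-Seq v4 cDNA synthesis are stated per the labels' protocols. All value columns were used. The files hold no read counts, so counting errors could not be given, and relative depths came from genes under 0.3 FPKM in both libraries of a pair.

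The CD11cCre Gr-1- library was compared with the 4 other Gr-1- libraries on log2(FPKM + 1), a scale that understates folds of low genes, for symbols averaging 1 FPKM or more across the 5. Calculations used Python 3.11.15, pandas 2.3.3 and numpy 2.4.6, with figures from matplotlib 3.10.9. The range calls were run on simulated data as a check of the code. The simulated libraries were alike apart from large added shifts, so this says nothing about small gaps or low genes in the real libraries. Of the tested symbols, 10271 were found in RefSeq tables of GRCm38, which were used for names, chromosome and gene order only. Promoter sequences were matched by symbol, and lengths came from GENCODE vM21.

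Named genes were Itgax, Cxcl2, Egr1, Gzma and the Fcgr genes, the 12 with the largest gap in each direction at 10 FPKM or more (predicted genes and small RNAs left out), up to 4 members outside the range per list, and the 10 neighbours of Itgax on each side. List members inside the range, list members beyond the 4 that the rule takes, and genes in the section of other observations were added after their values were seen. The members and the 27 lists were chosen with earlier results of these data known. Alternatives were 2 other pseudocounts, 2 other filters, 3 scalings, each other Gr-1- library left out, and all 8 other libraries as the range. Leaving out small RNAs, genes up to 2000 bases, or symbols averaging under 1 FPKM in the other 4, was added after seeing the data. Some results that the naming rule picks are not reported here.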

Additional observations from a re-analysis of the deposited data

Results flagged for a closer look

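Over the 5 Gr-1- libraries, 31 measures (the mean level of each list and 4 measures of the libraries) were screened by Dixon's ratio for a library far from the others, and 4 were past its critical value of 0.71, where chance gives about 1 in 20. The lists were chosen with earlier results of these data known, and the immediate early list holds Egr1, a gene given as a marker of the CD11cCre library, so its value is a description. The mean log2(FPKM + 1) of immediate early genes was 5.49 in the CD11cCre library, against 4.40 to 4.62 in the others. T cell genes stood out in the floxed library, with a mean of 1.10 against 0.22 to 0.46. B cell genes were low in the null library, with a mean of 1.42 against 2.15 to 2.44. The CD19Cre library had 9893 symbols at 1 FPKM or more, against 10148 to 10249.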

How the results depend on the processing

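No paired analysis was possible because the compared genotypes have 1 library each and are not compared by a test. Of 106 named genes outside the range, 96 stayed on the same side under every setting within the Gr-1- libraries in which they were tested, and none reversed. A pseudocount, a filter or leaving out 1 of the other libraries cannot bring a gene inside the range. Only the 3 scalings could, and 98 (median ratio), 102 (summed FPKM) and 96 (75th percentile) of the 106 stayed outside under them. The 10 that came inside the range under a scaling included Phlda1, Tgfb1, Calr, H2-Eb1, Hbb-b1, Klf2, Birc5, Pycard and Rgs10. Against all 8 other libraries, 67 of the 106 stayed outside. Counts of symbols depended more on the settings. Without a minimum mean, 3376 symbols were above and 2166 below, with 47 list members below against 31. With a minimum mean of 5 FPKM the counts were 1440 above, 715 below and 13 at least 2-fold below. Median ratio scaling gave 1840 below and 75th percentile scaling 1753. A pseudocount of 0.1 gave 64 symbols at least 2-fold below, and a pseudocount of 5 gave 45 at least 2-fold above and 9 at least 2-fold below. Leaving out 1 of the other libraries gave 2269 to 4211 above, 1260 to 2018 below, 84 to 112 at least 2-fold above and 28 to 38 at least 2-fold below, with 32 to 47 list members below. Against all 8 other libraries the counts were 1193 above, 681 below and 6 at least 2-fold below, with 18 list members below. Only symbols with a mean of 1 FPKM or more in the other 4 gave 2083 above and 49 at least 2-fold above. Without small RNAs, 13 were at least 2-fold below. With transcripts over 2000 bases only, 592 were below, 33 at least 2-fold above, 4 at least 2-fold below and 16 list members below. The last 3 settings and the minimum means test fewer symbols, and the range over 8 libraries is wider by construction. For the scalings the cause was not tested. No setting gives a read depth, so low values carry an unknown counting error.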

Other observations

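Among the 25 symbols at least 2-fold above the others in no list, several are known from lymphocytes, and all were picked after their values were seen. Lck, the kinase of T and NK cell receptors, was at 12.9 FPKM against 0.381 in null, 5.62 in CD19Cre, 3.56 in CEBPaCre and 4.38 in floxed. Prkcq, a protein kinase C of lymphocytes, was at 3.11 FPKM against 0.0327 to 0.751, and Il18rap, a chain of the IL-18 receptor, at 7.31 FPKM against 0.581 to 1.79. Of 8 tested Gimap symbols, a family of GTPases of lymphocytes, 5 were above and 0 below, with Gimap7 at 8.27 FPKM against 0.0956 to 2.48. Of 18 tested Klr symbols, a family of lectin-like NK receptors, 17 were above, where 20.9% of all tested symbols were. Many of them, such as Klrd1, Klrk1, Klrc1 and Klrg1, are in the NK cell list and were already counted there, so this is not a separate result. Klrc2 and Klra4 passed the mean of 1 FPKM only through the CD11cCre library. For Lck, Prkcq, Il18rap and Gimap7 null was the lowest library, while Klrd1 and Klra4 were lowest in CD19Cre.

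Apoe and Trf, which encode the lipid carrier apolipoprotein E and the iron carrier transferrin, were also high. Apoe was at 5636 FPKM against 2234, 2545, 2253 and 1785, above each of the 4 Gr-1+ libraries too (1027 to 2752 FPKM). Trf was at 175 FPKM against 32.1, 58.9, 40.6 and 45.0, and the Gr-1+ libraries held 104 to 167 FPKM. Plcb4, a phospholipase C, was at 9.05 FPKM against 0 to 0.114 in the other Gr-1- libraries and at most 0.115 in Gr-1+, a value carried by this 1 library.

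Families of small housekeeping proteins were also looked at after the values were seen, and 11.3% of all tested symbols were below the range. Of 11 tested Snrp symbols, which encode core spliceosome proteins, 8 (72.7%) were below the range and 0 above (median log2 difference -0.49), with Snrpd1 at 21.0 FPKM against 28.05 to 34.3. Of 76 mitochondrial ribosomal protein symbols, 27 (35.5%) were below and 10 above. Of 38 proteasome symbols, 11 (28.9%) were below and 1 above, and of 36 complex I symbols 9 (25%) were below and 0 above. Of 78 tested cytosolic ribosomal protein symbols, 7 (8.97%), a share under that of all symbols, were below and 5 above. Even so, 59 of the 78 were lower than the mean of the others, with a median log2 difference of -0.20. That median was -0.11 for mitochondrial ribosomal protein, -0.08 for proteasome and -0.08 for complex I symbols. Short transcripts as a whole were more often below, and the part of length in these families was not tested.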
